A study of Mus musculus with 2 samples.

Results

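The genes described here were 42 genes of the bone morphogenetic protein (BMP) and transforming growth factor-beta (TGF-beta) pathways, taken by symbol out of the 32285 genes counted in each library. They comprised 8 BMP and GDF ligands, 5 activin and TGF-beta ligands, 12 receptors and coreceptors, 5 secreted antagonists and modulators, 8 Smads and 4 Id genes, and no expression value was used to choose them. In the data 41 of the 42 had at least 1 count, and 37 reached 100 counts over both libraries, the level from which ratios were read.

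BMPs, activins and TGF-betas are secreted dimers that bring type I and type II serine/threonine kinase receptors together at the cell surface. The receptors phosphorylate receptor Smads, which enter the nucleus with the common partner Smad4, while Smad6 and Smad7 inhibit the pathway and proteins such as noggin, chordin, gremlin and follistatin bind ligands outside the cell. In the embryo the pathways are known for dorsal patterning of the neural tube and for formation of the heart, vessels, limbs and ectoderm, and the Id genes are widely used as direct targets of BMP signalling.

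The embryos were taken whole at embryonic day 9.5 from wild-type mice and from mice homozygous for a germline deletion of exons 1 and 2 of Usb1 (Usb1-null), a nuclease that trims U6 small nuclear RNA. By the study's methods they came from intercrosses of heterozygotes, so every tissue of the null embryos carried the deletion. The study describes Usb1-null embryos of this age as much smaller than wild-type ones. A difference in size or stage thus cannot be told apart from genotype here. Each genotype had 1 library, and how many embryos went into it is not stated in the sources used here. Single cells were barcoded in droplets with a 3′ chemistry that counts transcripts by unique molecular identifiers (UMIs), although the molecule field of the labels reads nuclear RNA. With 1 library per genotype there was no test, and each interval in parentheses (95%) reflects the number of UMIs counted and nothing else.

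From wild-type embryos there were 15161 cells at a median of 1243 UMIs and from Usb1-null embryos 13018 cells at a median of 2299.5, with 61 barcodes in common. Usb1 had 68 and 47 UMIs (3.13 and 1.41 UMIs per 1000000, CPM). These counts were not used to check the deletion, since 3′ tags need not cover the deleted exons. Xist had 53276 UMIs in the wild-type and 26 in the Usb1-null library, and 4 Y-linked genes had 14 and 23463, so embryo sex and genotype cannot be told apart; no gene described here is on the X or Y chromosome. Primitive erythroid-like cells were 3.95% of wild-type and 1.47% of Usb1-null cells.

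Cells of both libraries were grouped into 31 clusters without use of the 42 genes or of 64 related ones. Marker genes gave 22 clusters a cell class, written with "-like", and these names were rebuilt here. The rest kept a number: cluster 8 was led by genes that include Dmrt2, Meox1 and Uncx, cluster 11 by Ebf1 and Ebf2 among others, cluster 12 by Cyp26b1, Gbx1 and Nkx6-2, cluster 13 by Olig2 and Neurog2, and cluster 24 by Lmx1a and Tbx2. The cells of cluster 5 held a median of 0.547 times the UMIs of their own library. Highest clusters were sought over both libraries together among the 29 with 50 cells or more, and libraries were compared in the 26 that had 100 cells or more of each genotype.

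The 42 genes together took 0.368% of the UMIs of the wild-type and 0.372% of those of the Usb1-null library. They ranged from even to highly restricted. The highest cluster exceeded the median cluster by 1.24 times for Smad4 and by 96.1 times for Eng, and by over 5 times for 18 of the 37 genes with 100 UMIs. Smad4 was highest in cluster 5, at 220.1 CPM (197–245), next to 219 CPM (172–274) in cluster 27. The highest cluster was the same in both libraries for 19 of the 37, and for 13 of the 37 its interval lay clear of the next cluster. Across the 26 compared clusters, Pearson's r between the libraries had a median of 0.882 (0.227 for Acvr1b to 0.998 for Eng), as a description over clusters that share each library's depth.

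**Figure D1:**
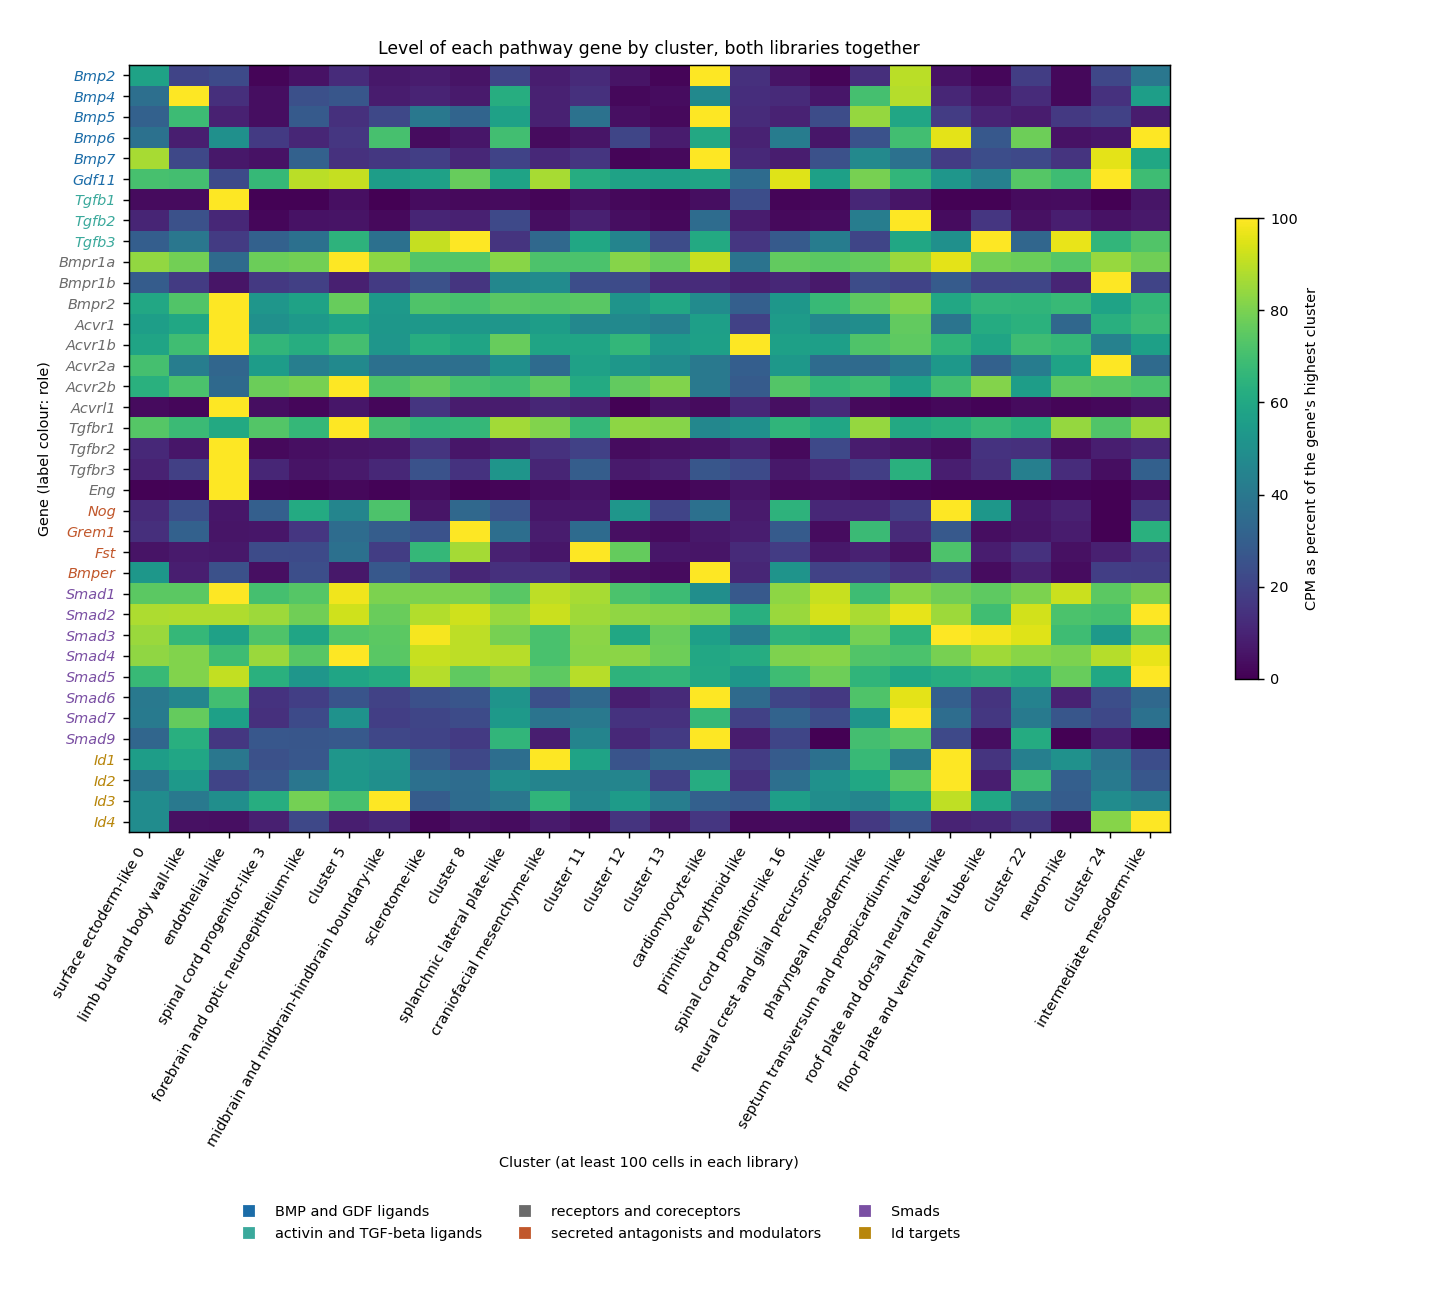
Level of the 37 pathway genes with at least 100 UMIs (vertical axis, label colour by role) in the 26 compared clusters (horizontal axis), both libraries together, as percent of the CPM in the highest of these clusters. Eng, Acvrl1, Tgfbr2 and Tgfb1 are bright in the endothelial-like column alone, whereas Smad2, Smad4 and Bmpr1a are bright in most columns.

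Eng, Tgfb1, Acvrl1 and Tgfbr2 were higher in endothelial-like than in other cells of each library; all 8 endothelial markers were raised in this cluster. Eng (endoglin, a coreceptor of endothelium; chr2:32646595-32682669, + strand, GRCm38) measured 436 CPM (402–471) there in the wild-type library against 337 CPM (314–362) in the Usb1-null library. Relative to all other cells this was 70.7 (58.3–86.4) times as high in the former and 54.8 (46.8–64.6) times in the latter. The cluster held 81.7% of all Eng UMIs.

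Tgfb1, a ligand made by endothelium and blood cells, was 28.0 (21.5–36.7) times as high in endothelial-like as in other wild-type cells, and 31.9 (25.2–40.6) times in the Usb1-null library. Acvrl1 (ALK1, a type I receptor of endothelium) stood at 23.2 (17.2–31.6) and 18.2 (14.6–22.7) times. Tgfbr2, the type II receptor for TGF-beta, stood at 14.2 (12.2–16.4) and 10.2 (9.03–11.5) times. In each library these genes and Eng were highest in endothelial-like cells among the compared clusters. Cluster 30, with 19 wild-type and 6 Usb1-null cells and led by genes that include Itgb3 and Itga2b, was too small for that comparison and had Tgfb1 at 503 CPM (298–795) on 18 UMIs, above the 111 CPM (100.2–122) of endothelial-like cells. The coreceptor Tgfbr3 (betaglycan) was less restricted, at 5.04 (4.62–5.49) and 5.78 (5.42–6.16) times, and reached 348 CPM (316–382) in septum transversum and proepicardium-like cells of both libraries together. Tgfbr1, the type I receptor for TGF-beta, was not raised, at 0.857 (0.799–0.918) times over both libraries.

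The BMP receptors Bmpr2 and Acvr1 were also highest in endothelial-like cells, by 1.57 (1.49–1.65) and 1.89 (1.75–2.04) times over both libraries. Bmpr1a and Bmpr1b, which are also type I receptors for BMPs, had their lowest level there, at 0.439 (0.405–0.476) and 0.248 (0.218–0.282) times that of other cells. In all, 11 of 37 genes were past 1.5-fold higher in endothelial-like cells, where 11.1% of 15031 genes were, and 14 of 37 were past 1.5-fold lower, where 28.8% were. Doublet calls took 15.5% of these cells, and their part in the levels was not tested.

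With each cell thinned to 800 UMIs, Eng was detected in 29.6% (26.3–32.9) of endothelial-like wild-type cells and in 26.2% (23.2–29.4) of those from Usb1-null embryos. The shares before thinning were 44.6% and 54.3%, at median depths of 1359 and 2526 UMIs. In surface ectoderm-like cluster 0, which should lack Eng, the thinned shares were 0.196% and 0.380%, and those before thinning 0.247% and 0.937% at 1234 and 2273 UMIs.

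Over both libraries Bmp2, Bmp5, Bmp7 and Smad6 were highest in cardiomyocyte-like cells. Bmp2, a ligand of the developing heart, had 62.6 CPM (47.3–81.3) there in the wild-type library against 45.5 CPM (35.1–58.0) in the Usb1-null library. Over both libraries it had 52.1 CPM (43.2–62.3), an interval that overlapped the 46.8 CPM (35.7–60.2) of septum transversum and proepicardium-like cells. Bmp5, of the Bmp7 subfamily, had 257 CPM (225–293) against 326 CPM (297–357). Pharyngeal mesoderm-like cells were highest for Bmp5 in the wild-type library, and had 252 CPM (226–279) over both. That interval overlapped the 299 CPM (278–322) of cardiomyocyte-like cells over both libraries. Bmp7 had 101 CPM (88.3–115) in cardiomyocyte-like cells over both libraries, within the interval of cluster 24 at 96.7 CPM (72.2–127). Cluster 24 was the highest of the compared clusters for Bmp7 in the Usb1-null library.

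Bmp4, a ligand of ventral and lateral mesoderm (chr14:46383520-46390669, - strand), was highest in limb bud and body wall-like cells over both libraries. It measured 123 CPM (105–142) there in the wild-type library against 90.2 CPM (77.8–104) in the Usb1-null library. Septum transversum and proepicardium-like cells came next, at 92.0 CPM (76.2–110.2) over both libraries, and the intervals of these 2 clusters overlapped.

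Smad6, an inhibitory Smad that BMP signalling is known to induce (chr9:63953076-64022059, - strand), was highest in cardiomyocyte-like cells, at 299 CPM (264–337) against 328 CPM (299–359) by library. Septum transversum and proepicardium-like cells, at 304 CPM (275–336) over both, did not differ from them beyond counting error. Smad7, which inhibits both branches, had 236 CPM (197–281) and 258 CPM (223–297) in septum transversum and proepicardium-like cells; the 74 cells of surface ectoderm-like cluster 28 had 272 CPM (189.8–379), an interval that includes both. Of all pairs of the 42 genes, Smad6 with Smad7 had the highest Pearson's r across the 26 clusters (0.844, on log2(CPM + 1) of both libraries together), ahead of Acvrl1 with Eng (0.837), Bmp2 with Smad6 (0.835) and Bmp4 with Smad6 (0.825). These values describe clusters of the same 2 libraries.

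Tgfb2, a TGF-beta known from heart and mesenchyme (chr1:186622792-186705989, - strand), had the highest cluster farthest above its median cluster of the ligands with 100 UMIs other than Tgfb1, at 14.3 times. In septum transversum and proepicardium-like cells it measured 506 CPM (447–569.9) in the wild-type library against 640.2 CPM (584–700.2) in the Usb1-null library, and the next cluster, pharyngeal mesoderm-like, held 248 CPM (223–276) over both. Its lowest level was 10.9 CPM, in spinal cord progenitor-like cluster 3.

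**Figure D2:**
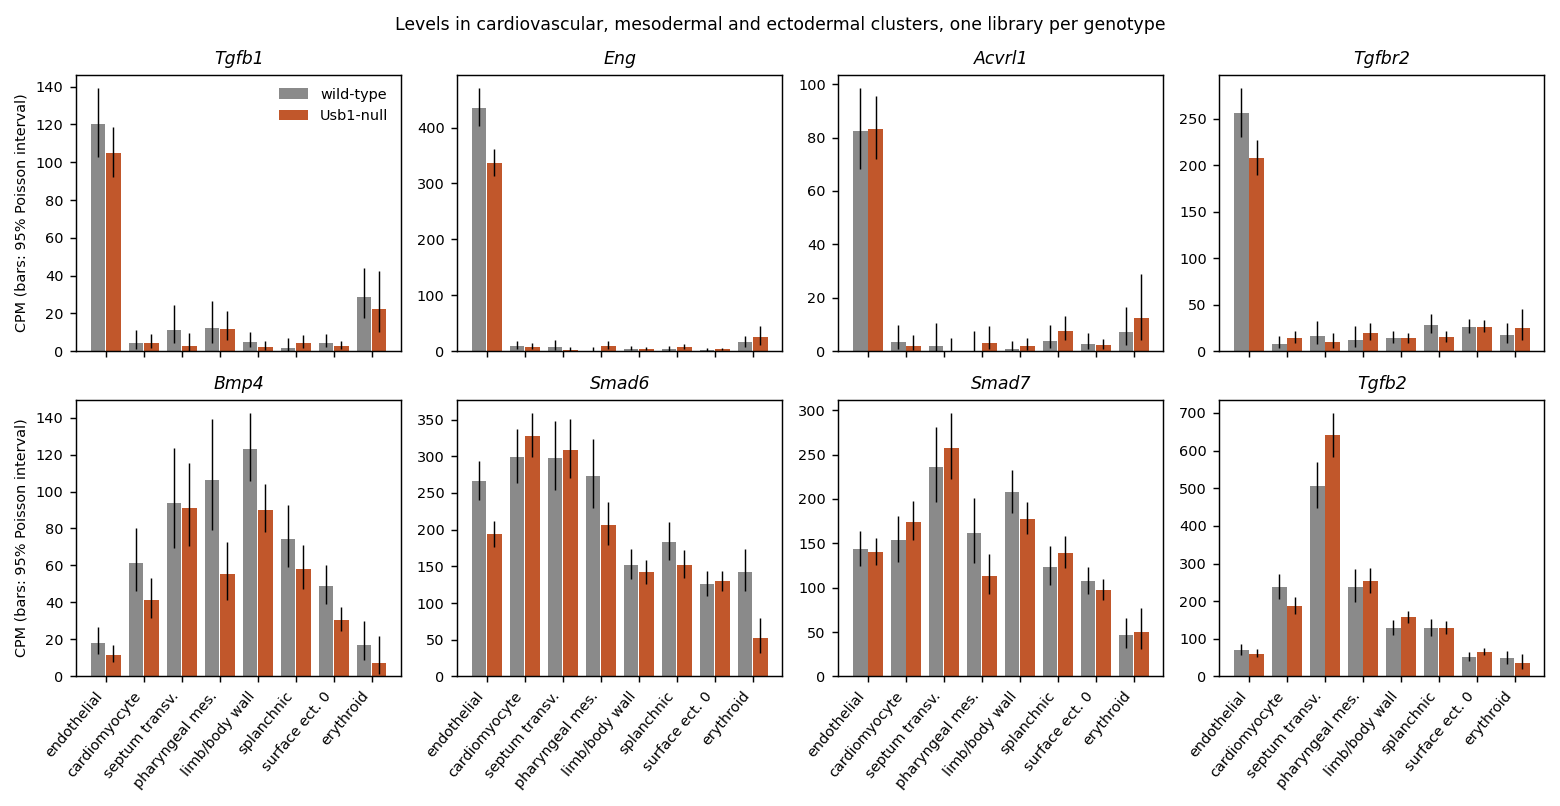
CPM of Tgfb1, Eng, Acvrl1, Tgfbr2, Bmp4, Smad6, Smad7 and Tgfb2 in 8 clusters, wild-type in grey and Usb1-null in orange, 1 library each, with 95% Poisson intervals (counting error only). Tgfb1, Eng, Acvrl1 and Tgfbr2 peak in the endothelial-like cells, and Tgfb2 peaks in the septum transversum and proepicardium-like cells at 506 CPM and 640.2 CPM.

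The sequences ahead of Eng, Bmp4, Smad6 and Id4 are shown as those of a coreceptor, a ligand, an inhibitory Smad and an Id gene described here, whose upstream windows overlap no annotated exon. Each is the 250 bases before the RefSeq transcription start on GRCm38.p6, 5′ to 3′ on the strand of the gene: Eng at chr2:32646345-32646594 (+), Bmp4 at chr14:46390670-46390919 (-), Smad6 at chr9:64022060-64022309 (-) and Id4 at chr13:48260866-48261115 (+). Capitals mark GGCGCC, letters of a site for BMP-type Smads, and CAGAC or its reverse complement GTCTG, letters of a site for Smad3 and Smad4.
Eng: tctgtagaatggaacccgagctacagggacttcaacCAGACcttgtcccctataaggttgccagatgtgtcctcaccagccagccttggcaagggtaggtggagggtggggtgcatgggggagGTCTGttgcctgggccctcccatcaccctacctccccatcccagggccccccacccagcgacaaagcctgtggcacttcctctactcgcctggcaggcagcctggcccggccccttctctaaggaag
Bmp4: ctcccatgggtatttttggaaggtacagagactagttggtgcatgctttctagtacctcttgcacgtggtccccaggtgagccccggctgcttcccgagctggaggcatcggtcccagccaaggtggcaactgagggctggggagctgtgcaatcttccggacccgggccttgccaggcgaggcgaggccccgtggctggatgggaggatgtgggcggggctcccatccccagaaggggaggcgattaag
Smad6: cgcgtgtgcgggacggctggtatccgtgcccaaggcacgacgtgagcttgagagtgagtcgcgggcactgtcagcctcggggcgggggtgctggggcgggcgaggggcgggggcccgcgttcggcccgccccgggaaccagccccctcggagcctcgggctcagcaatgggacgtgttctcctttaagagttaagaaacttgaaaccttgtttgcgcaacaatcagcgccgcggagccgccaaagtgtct
Id4: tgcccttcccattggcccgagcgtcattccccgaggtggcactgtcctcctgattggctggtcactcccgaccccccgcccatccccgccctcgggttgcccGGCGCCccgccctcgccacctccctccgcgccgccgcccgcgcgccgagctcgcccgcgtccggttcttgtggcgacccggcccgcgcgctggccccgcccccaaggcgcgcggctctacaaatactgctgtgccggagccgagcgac
The Eng window held 2 matches to CAGAC or GTCTG, the Id4 window 1 to GGCGCC, and those of Bmp4 and Smad6 held neither motif. Searched on both strands, GGCGCC was present in 9.59% and CAGAC in 42.2% of all 32851 RefSeq windows of this length. Of 35 windows for the 30 pathway genes matched by symbol, 9 held GGCGCC and 13 held CAGAC. No matches overlapped in the windows shown, and a match describes the letters only.

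In the neural tube Id1 and Id2 were higher in the roof plate-like than in the floor plate-like cells. Roof plate and dorsal neural tube-like cells, led by genes that include Wnt1 and Wnt3a, were set against floor plate and ventral neural tube-like cells, led by genes that include Shh and Foxa2. Id1, an inhibitor of bHLH factors, measured 276 against 44.2 CPM in the wild-type library, a dorsal-to-ventral ratio of 6.25 (3.79–10.9). In the Usb1-null library it measured 367 against 53.2 CPM, a ratio of 6.91 (4.96–9.85). The intervals of these ratios overlapped. Over both libraries Id1 was highest in roof plate-like cells, at 332 CPM (300–367), level with craniofacial mesenchyme-like cells at 332 CPM (310–355). In the Usb1-null library craniofacial mesenchyme-like cells were the highest compared cluster, at 390 CPM (359–423). The roof plate-like cells were gathered differently by other clusterings (best overlap by Jaccard index 0.242 to 0.784), under which the log2 ratio over both libraries was 1.64 to 2.62 in place of 2.73 for Id1 and 2.69 to 3.62 in place of 3.58 for Id2.

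Id2 had a dorsal-to-ventral ratio of 8.09 (4.65–15.2) in the wild-type and 15.8 (9.20–29.4) in the Usb1-null library, and in each library the interval overlapped that of Id1. Roof plate-like cells were its highest cluster in each library, at 284 CPM (254–316) over both. Id3 had ratios of 1.23 (0.936–1.61) and 1.74 (1.39–2.20), and was highest in midbrain and midbrain-hindbrain boundary-like cells, at 313 CPM (293–333) over both libraries. Id4 had only 8 and 9 UMIs in the dorsal and ventral cells and was nominally highest over both libraries in intermediate mesoderm-like cells, at 68.2 CPM on 33 UMIs, with an interval that overlaps the 55.8 CPM (37.6–79.7) of cluster 24. By library, intermediate mesoderm-like cells had 43.0 CPM (17.3–88.5) in the wild-type and 81.1 CPM (52.9–119) in the Usb1-null library, and in the wild-type library cluster 24 was higher, at 58.0 CPM on 12 UMIs.

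Bmp6, a ligand of the roof plate and of other tissues, had a dorsal-to-ventral ratio of 3.42 (1.91–6.5) in the wild-type and 3.35 (1.88–6.31) in the Usb1-null library. Over all clusters Bmp6 was highest in intermediate mesoderm-like cells, at 95.1 CPM (69.6–127), an interval that overlaps the 91.4 CPM (74.9–110.4) of roof plate-like cells. Gdf7, known from the roof plate, had 16 UMIs in all, of which 5 were in the roof plate-like and 0 in the floor plate-like cells. Fst (follistatin, which binds activins) had ratios of 8.87 (4.08–22.9) and 9.12 (5.96–14.6). Tgfb2 ran the other way, at 0.120 (0.0307–0.340) and 0.255 (0.146–0.424).

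Of 21 genes with 100 UMIs over these 2 clusters, 8 were past 1.5-fold higher dorsally, where 7.44% of 5376 genes were, and 3 were past 1.5-fold lower, where 8.15% were. Inhibitory Smads were among the 8, with Smad6 at 2.01 (1.45–2.82) and Smad7 at 2.23 (1.56–3.21) times over both libraries. The receptor Smads with 100 UMIs were within 1.5-fold, with Smad1 at 1.04 (0.820–1.33), Smad2 at 1.23 (1.01–1.5), Smad3 at 1.02 (0.873–1.19) and Smad5 at 0.963 (0.712–1.30); Smad9 had 6 and 1 UMIs. Chrd (chordin, a BMP antagonist of midline tissues) had 79 UMIs in all and its highest level, 7.64 CPM (3.49–14.5), in floor plate-like cells.

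**Figure D3:**
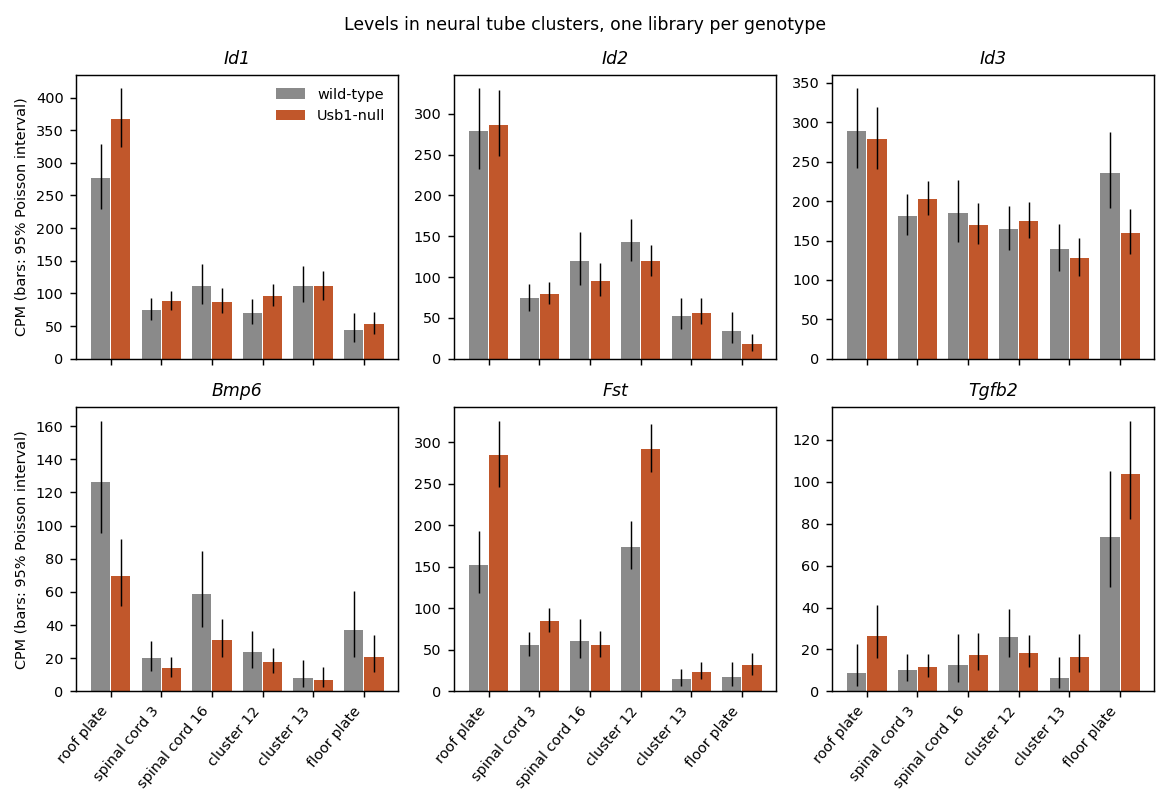
CPM of Id1, Id2, Id3, Bmp6, Fst and Tgfb2 in 6 neural tube clusters, wild-type in grey and Usb1-null in orange, 1 library each, with 95% Poisson intervals (counting error only). Id1 stands at 276 and 367 CPM in the roof plate-like cells against 44.2 and 53.2 CPM in the floor plate-like cells, and Tgfb2 is the gene with the opposite order.

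Fst was highest in cluster 11 at 323 CPM (302–346) over both libraries, and next in cluster 8 at 279 CPM (261–299). Among the compared clusters, cluster 8 was highest in the wild-type library and cluster 11 in the Usb1-null library. Cluster 11 had 233 CPM (204–265) in the former and 381 CPM (351–413) in the latter. Grem1 (gremlin, which binds BMPs) was highest in cluster 8 at 45.6 CPM (38.3–53.9). Bmper, a secreted BMP modulator, was highest over both libraries in cardiomyocyte-like cells at 169.7 CPM (153–187), ahead of surface ectoderm-like cluster 0 at 89.7 CPM (81.2–98.8). In the wild-type library alone spinal cord progenitor-like cluster 16 was higher, at 169.9 CPM (135–211) against 108 CPM (88.0–132) in cardiomyocyte-like cells. Nog (noggin, a BMP antagonist) was scarce, with 204 UMIs in all; roof plate-like cells had 12.8 CPM (7.17–21.1), and the nominal maximum in surface ectoderm-like cluster 28 rested on 2 UMIs. The small notochord-like cluster had 4 UMIs, at 37.8 CPM (10.3–96.9).

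Among receptors, Bmpr1b, a type I receptor for BMPs and GDFs, reached 1267 CPM (1118–1430.0) in the wild-type and 1100.2 CPM (990.1–1219) in the Usb1-null library in cluster 24. The next cluster, craniofacial mesenchyme-like, had 561 CPM (533–591) over both. Acvr2a, an activin type II receptor, was also highest in cluster 24, at 294 CPM (249.8–343). Bmpr1a, Acvr2b (a type II receptor for activins and GDFs) and Tgfbr1 were each highest in the shallow cluster 5 and were spread widely, with a highest cluster at 1.28, 1.40 and 1.49 times the median. Acvr1b, an activin type I receptor, had 50.9 CPM (43.9–58.6) in endothelial-like cells and a nominal maximum on 7 UMIs in the 100 mature liver-like cells.

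Over the 29 clusters the receptor Smads other than Smad9 had no cluster far above the median. The highest cluster was at 1.33 times the median for Smad1, 1.53 for Smad5 (both of the BMP branch), 1.36 for Smad2 and 1.38 for Smad3 (both of the TGF-beta and activin branch). Smad3 was higher still, at 454 CPM (335–602), in the notochord-like cells, which were under 50 in number and left out of these maxima. The maxima were in endothelial-like, intermediate mesoderm-like, cluster 27 (with 92.3% doublet calls) and roof plate-like cells. On the low side, primitive erythroid-like cells had Smad1 at 43.5 CPM on 48 UMIs, against a median of 118, and Smad2 at 146 CPM, against 198. Smad5 and Smad3 were lowest in mature liver-like cells, at 44.0 CPM on 6 UMIs and 110 CPM on 15, against medians of 79.9 and 213. Smad9, the remaining BMP receptor Smad, had 421 UMIs in all, with 23.3 CPM (17.5–30.4) in cardiomyocyte-like cells and a nominal maximum on 4 UMIs in mature liver-like cells.

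Several ligands were near the limit of detection. Inhba and Inhbb, which encode activin subunits, had 27 and 7 UMIs, and 9 of the 27 were in septum transversum and proepicardium-like cells. The highest level of Inhbb, in limb bud and body wall-like cells, rested on 5 UMIs. Gdf3 had 0 UMIs in both libraries, with upper Poisson bounds of 0.170 CPM in the wild-type and 0.110 CPM in the Usb1-null library. Tgfb3 was low throughout, with 17.0 CPM (12.6–22.3) in cluster 8 and 17.0 CPM (10.4–26.2) in floor plate-like cells. Gdf11, a GDF known from axial patterning, had a nominal maximum of 1.99 times its median cluster, which rested on 7 UMIs in mature liver-like cells. In endothelial-like cells Gdf11 was at 0.331 (0.227–0.466) times the level of other cells over both libraries.

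Between the genotypes, whole-library levels differed little. None of the 37 genes was past 1.5-fold, against 12.4% of the 15031 genes with 100 UMIs (6.95% higher and 5.43% lower in the Usb1-null library). The median log2 ratio of Usb1-null over wild-type was 0.03 for the 37 genes and -0.01 for all 15031. Counting intervals lay above 1 for 13 of the 37 genes, where they did for 27.7% of all 15031, and below 1 for 11, where they did for 31% of all. In whole-library sums, fewer cells of a type and less RNA per cell cannot be told apart.

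Fst (chr13:114452290-114458951, - strand) had the highest ratio. It measured 66.4 CPM (63.0–69.9) in the wild-type library against 99.4 CPM (96.1–103) in the Usb1-null library, a ratio of 1.5 (1.41–1.59) that was just under 1.5 before rounding. All 4 antagonists with 100 UMIs were nominally higher in the Usb1-null library, as were 48.4% of all 15031 genes, with a median log2 ratio of 0.31. Bmper had a ratio of 1.18 (1.08–1.30), Nog of 1.30 (0.966–1.77) on 68 and 136 UMIs, and Grem1 of 1.07 (0.903–1.27); the intervals of Nog and Grem1 include 1.

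Bmp4 had the lowest ratio, at 33.0 CPM (30.6–35.5) in the wild-type library against 23.9 CPM (22.2–25.6) in the Usb1-null library, or 0.724 (0.653–0.802). Of the 6 BMP and GDF ligands with 100 UMIs, 5 were nominally lower, as were 51.6% of all 15031 genes, with a median log2 ratio of -0.16. Bmp7 had a ratio of 0.794 (0.717–0.880) and Bmp6 of 0.880 (0.795–0.974). Bmp5 was the exception, at 1.16 (1.10–1.23). The intervals of Bmp2 and of Gdf11, at 0.908 (0.816–1.01), included 1. Among the TGF-betas, Tgfb3 had a ratio of 1.24 (1.01–1.53), Tgfb2 of 1.08 (1.01–1.15) and Tgfb1 of 0.867 (0.736–1.02).

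Of the receptors, Acvr2b (chr9:119402118-119434995, + strand) was the lowest, at 166 CPM (161–171) in the wild-type library against 129 CPM (125–133) in the Usb1-null library, a ratio of 0.779 (0.745–0.814). Eng followed at 0.847 (0.769–0.932). The other receptors lay between 0.926 for Bmpr1b and 1.15 for Acvrl1, with Acvr1b at 1.12 (1.02–1.24). The median log2 ratio of all 12 was 0.02.

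Inside the cell, Smad4, the common partner of the receptor Smads, measured 155 CPM (149.9–160.4) in the wild-type library against 189.5 CPM (185–194) in the Usb1-null library, a ratio of 1.22 (1.17–1.27). Smad9 had the highest ratio of the Smads, 1.43 (1.16–1.76), on 132 and 289 UMIs. Smad5 was at 1.17 (1.10–1.24) and Smad3 at 0.882 (0.851–0.915), while Smad1 was at 1.04 (0.987–1.09) and Smad2 at 0.960 (0.924–0.998). The inhibitory Smads were at 0.933 (0.887–0.981) for Smad6 and 1.02 (0.968–1.08) for Smad7. The Id genes did not move together: Id1 (chr2:152736251-152737410, + strand) was at 1.23 (1.18–1.29), Id2 at 0.929 (0.884–0.976) and Id3 at 0.954 (0.914–0.995), and the interval of Id4, 1.04 (0.864–1.24), included 1.

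**Figure D4:**
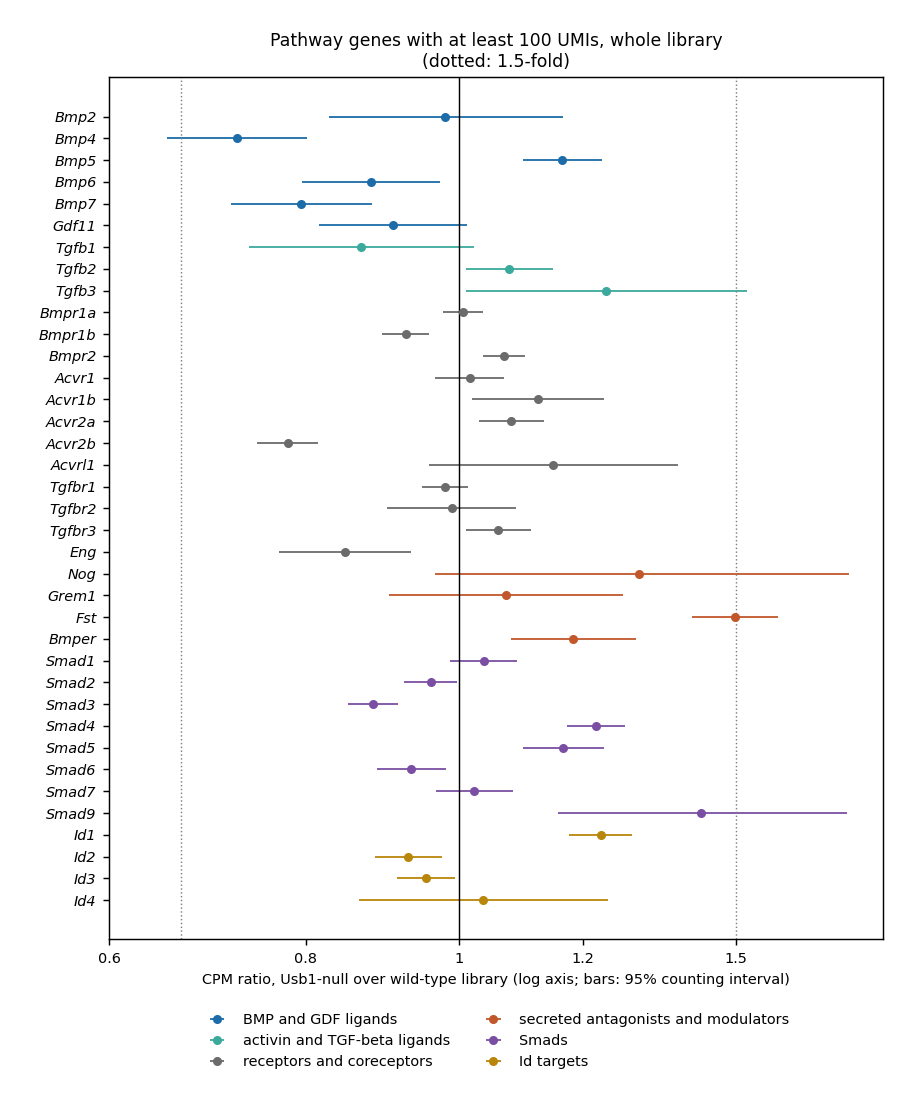
Whole-library CPM ratio of Usb1-null over wild-type (log axis) for the 37 pathway genes with at least 100 UMIs, coloured by role, with 95% counting intervals, the solid line at 1 and dotted lines at 1.5-fold. No point lies beyond a dotted line, and Fst at 1.5 and Bmp4 at 0.724 are the extremes.

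Shares of cells with a UMI depend on depth, so all cells were also thinned to 800 UMIs, which left out 2689 wild-type and 304 Usb1-null cells. Fst was detected in 7.39% and 15.7% of cells before thinning, and in 4.54% (4.18–4.92) and 6.81% (6.38–7.26) after it. Acvr2b reversed its order, from 20.4% and 27.5% before to 12.8% (12.2–13.4) and 9.93% (9.42–10.5) after. The order after thinning was that of the CPM. In primitive erythroid-like cells, taken as background, the thinned shares were 2.12% and 3.31% for Fst and 5.15% and 2.76% for Acvr2b, at median depths before thinning of 838 and 1723 UMIs. This background is not clean, as doublet calls took 19.5% of these cells and Acvr2b had 61.6 CPM there over both libraries. Fst was lower in septum transversum and proepicardium-like cells, at 14.0 CPM.

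Within clusters, 473 pairs of a gene and a cluster had 100 UMIs, from 34 of the 42 genes. Of these, 32 pairs (6.77%) were past 1.5-fold, against 9.67% of all 120086 such pairs; 17 were higher and 15 lower in the Usb1-null library, where 4.1% and 5.58% of all pairs were. Ratios lay above 1 in 49.7% and below 1 in 50.3% of all pairs, and intervals lay clear above 1 in 11.6% and below in 13.5%. Over single clusters the share of all genes past 1.5-fold ran from 7.8% to 14.2%. The pathway genes were thus not called more often than genes at large. The calls were uneven by role, with 10 of 16 pairs for antagonists, 8 of 31 for BMP and GDF ligands, 7 of 152 for Smads, 4 of 65 for Id genes, 3 of 197 for receptors and 0 of 12 for activin and TGF-beta ligands. Of the 16 antagonist pairs, 9 were of Fst and 6 of Bmper. Clusters share their library and are not replicates of a genotype.

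Fst was above 1 in 8 of 9 clusters and past 1.5-fold in 5. In sclerotome-like cells it measured 129 CPM (109–151) on 149 UMIs in the wild-type library against 277 CPM (252–304) on 448 UMIs in the Usb1-null library, a ratio of 2.16 (1.79–2.61). Roof plate-like cells had a ratio of 1.86 (1.41–2.48), cluster 12 of 1.68 (1.38–2.04), cluster 11 of 1.63 (1.40–1.91) and spinal cord progenitor-like cluster 3 of 1.53 (1.13–2.1). Mesodermal and neural clusters were both among the 5. The ratio was smaller in cluster 8, 1.17 (1.02–1.36), and below 1 in midbrain and midbrain-hindbrain boundary-like cells, 0.867 (0.637–1.19).

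In sclerotome-like cells thinned to 800 UMIs, Fst was detected in 8.28% (6.30–10.6) of those from wild-type embryos and 16.9% (14.1–20.01) of those from Usb1-null embryos. Before thinning the shares were 14.6% and 38.2%, at median depths of 1290 and 2314 UMIs. Both thinned shares were above the erythroid-like ones given earlier.

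Bmper was above 1 in 5 of 6 clusters, past 1.5-fold higher in 3 and past 1.5-fold lower in 1. In cardiomyocyte-like cells it measured 108 CPM (88.0–132) in the wild-type library against 208 CPM (185–233) in the Usb1-null library, a ratio of 1.92 (1.52–2.44). Midbrain and midbrain-hindbrain boundary-like cells had a ratio of 1.99 (1.34–3.04) and endothelial-like cells of 1.78 (1.24–2.60). The low value was in spinal cord progenitor-like cluster 16, at 0.283 (0.193–0.411) on 81 and 47 UMIs, and it depended on how the cells were clustered, with a log2 ratio of 0.16 in place of -1.82 where pathway genes were allowed to shape the clusters. Grem1 was past 1.5-fold lower in its single measured pair, cluster 8, at 0.652 (0.459–0.925).

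Of the ligands, Bmp4 was below 1 in 6 of 6 clusters. It was past 1.5-fold in pharyngeal mesoderm-like cells, with 106 CPM (79.3–139) against 55.2 CPM (41.1–72.6) and a ratio of 0.520 (0.346–0.780), and in surface ectoderm-like cluster 0, with a ratio of 0.621 (0.455–0.848). In its highest cluster, limb bud and body wall-like, the ratio was 0.734 (0.595–0.905), and in septum transversum and proepicardium-like cells it was 0.970 (0.664–1.43).

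Bmp6 (chr13:38345107-38500302, + strand) was below 1 in 5 of 6 clusters. It was past 1.5-fold in cardiomyocyte-like cells at 0.515 (0.360–0.735), in roof plate-like cells at 0.552 (0.370–0.822) and in midbrain and midbrain-hindbrain boundary-like cells at 0.621 (0.468–0.825). Bmp6 and Fst had opposite ratios in the same roof plate-like cells. Under other clusterings the log2 ratio there was 0.70 to 0.94 for Fst and -0.81 to -0.53 for Bmp6, which was within 1.5-fold with the clustering nearest to 19 clusters. In splanchnic lateral plate-like cells the ratio of Bmp6 was 1.08 (0.794–1.49).

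In forebrain and optic neuroepithelium-like cells, ligands differed in direction. Bmp7 was at 0.535 (0.352–0.809), with 43.3 CPM (32.7–56.2) in the wild-type library against 23.2 CPM (16.8–31.1) in the Usb1-null library. Bmp5 in the same cells was at 1.60 (1.23–2.1) and Gdf11 at 0.657 (0.445–0.969). Across clusters Bmp5 was above 1 in 10 of 12 and Bmp7 in 0 of 3.

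Acvr2b, Smad3 and Smad4 lay on one side of 1 in most clusters, with 10 or more intervals clear of 1 on that side. They were 3 of the 14 pathway genes with 100 UMIs in at least 20 clusters, and 22.1% of all 2981 such genes had as many intervals on one side. Acvr2b was below 1 in 22 of 23 clusters, with its interval below 1 in 12, and past 1.5-fold in midbrain and midbrain-hindbrain boundary-like cells at 0.648 (0.539–0.781). Smad3 was below 1 in 22 of 25 clusters, with its interval below 1 in 10. Smad4 was above 1 in 23 of 26 clusters, with its interval above 1 in 11, and past 1.5-fold in neuron-like cells at 1.76 (1.25–2.51), in cluster 24 at 1.64 (1.06–2.61) and in spinal cord progenitor-like cluster 16 at 1.61 (1.2–2.19). By contrast Bmpr1a was above 1 in 12 and below 1 in 14 clusters, with no interval that left out 1.

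Primitive erythroid-like cells, with 19.5% doublet calls, had 2 of 9 pathway genes past 1.5-fold lower, both of them Smads, where 8.64% of 2998 genes were. Smad6 was at 0.367 (0.218–0.592) there on 100 and 21 UMIs, and Smad3 at 0.606 (0.40–0.898). In sclerotome-like cells Smad6 was past 1.5-fold higher, at 1.60 (1.19–2.17). Smad3 was also past 1.5-fold lower in neural crest and glial precursor-like cells, at 0.646 (0.501–0.831). Those cells were gathered differently by some other clusterings (best overlap by Jaccard index 0.337 to 0.930).

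Id1 was above 1 in 18 of 22 clusters. In craniofacial mesenchyme-like cells it measured 256 CPM (227–287) in the wild-type library against 390.4 CPM (359–423) in the Usb1-null library, a ratio of 1.53 (1.32–1.76). It was also past 1.5-fold in neural crest and glial precursor-like cells at 1.95 (1.37–2.83) and in forebrain and optic neuroepithelium-like cells at 1.73 (1.33–2.27). The limit on the clustering of neural crest and glial precursor-like cells given for Smad3 holds here too. Id2 was below 1 in 14 of 20 clusters, past 1.5-fold in pharyngeal mesoderm-like cells at 0.632 (0.486–0.823), and Id3 was below 1 in 15 of 22, never past 1.5-fold.

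Between the genotypes Eng, Tgfbr2, Tgfb1 and Acvrl1 were within 1.5-fold in endothelial-like cells. Eng had a ratio of 0.774 (0.696–0.861), Tgfbr2 of 0.811 (0.706–0.931), Tgfb1 of 0.872 (0.714–1.07) and Acvrl1 of 1.01 (0.798–1.28). Intervals of Eng and Tgfbr2 lay below 1, and those of Tgfb1 and Acvrl1 included 1. Tgfb2 in septum transversum and proepicardium-like cells had a ratio of 1.27 (1.09–1.47). The remaining 2 pairs past 1.5-fold were Bmpr1b in cluster 5, at 0.636 (0.459–0.882), and Acvr2a in spinal cord progenitor-like cluster 16, at 1.54 (1.13–2.12).

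**Figure D5:**
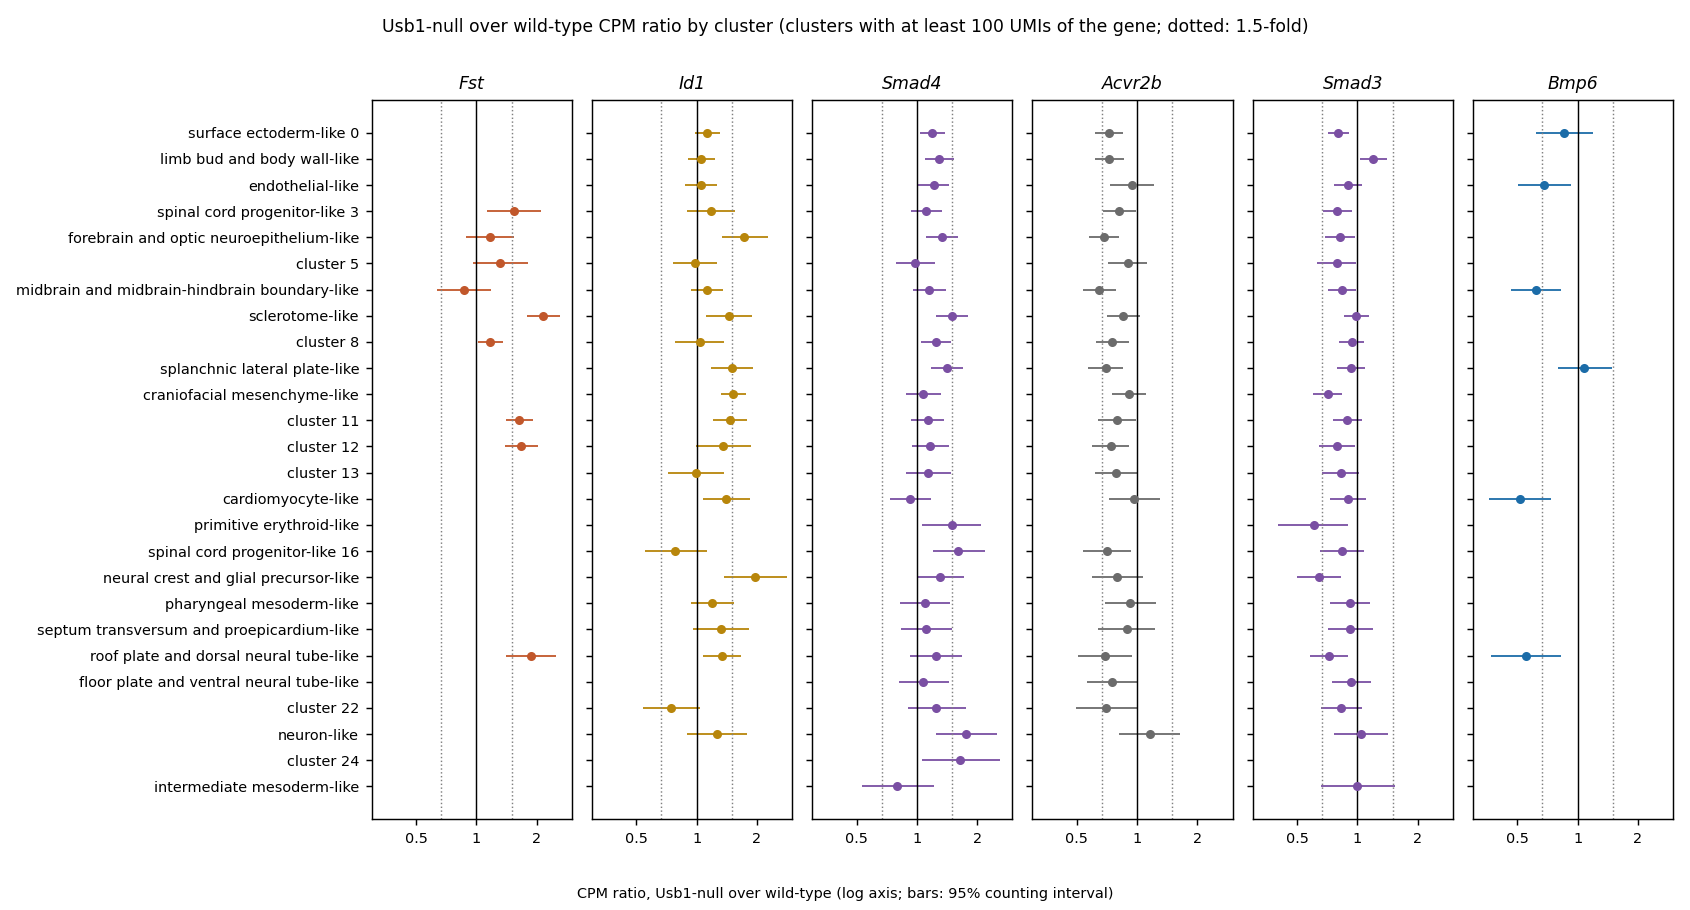
CPM ratio of Usb1-null over wild-type (log axis) in each cluster with at least 100 UMIs of the gene, for Fst, Id1, Smad4, Acvr2b, Smad3 and Bmp6, with 95% counting intervals, the solid line at 1 and dotted lines at 1.5-fold. Points of Fst, Id1 and Smad4 lie mostly above 1 (8 of 9, 18 of 22 and 23 of 26 clusters) and those of Acvr2b, Smad3 and Bmp6 mostly below 1 (22 of 23, 22 of 25 and 5 of 6).

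Of the 64 further pathway genes, 45 had 100 UMIs; 2 were past 1.5-fold higher and 4 lower in the Usb1-null library, against the 6.95% and 5.43% of all genes given earlier, and their median log2 ratio was 0.03. The higher ones were Cdkn1a, a cell cycle inhibitor that TGF-beta and other signals induce, at 2.00 (1.53–2.63) on 74 and 227 UMIs, and Dand5, a Nodal antagonist, at 1.58 (1.24–2.03). The lower ones were Sostdc1, a BMP and Wnt antagonist, at 0.467 (0.369–0.588), Pmepa1, a TGF-beta-induced inhibitor, at 0.539 (0.432–0.671), Kcp, a BMP modulator, at 0.618 (0.535–0.714), and Tll2, a tolloid-like protease, at 0.624 (0.443–0.879). The next in either direction were Dlx3 at 1.44 (0.972–2.15), Gdf10 at 1.34 (0.963–1.87), Gata2 at 1.28 (0.949–1.75) and the Smad corepressor Ski at 0.743 (0.709–0.778). Of the 9 other transcriptional targets with 100 UMIs, 7 were nominally higher, as were 48.4% of all genes, and their median log2 ratio was 0.25. Intervals left out 1 for 4 of the 9, above it for Cdkn1a and for Tbx20, a heart transcription factor, at 1.17 (1.09–1.25), and below it for Msx1, a homeobox gene, at 0.839 (0.764–0.922), and Tgfbi, an extracellular matrix protein, at 0.807 (0.718–0.906).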

How the data were processed

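The authors deposited 1 matrix of UMI counts per library, unnormalised, made per the file headers with Cell Ranger 6.1.2 (the submitters' processing notes name 2.1.1 and mm10). Cells with 200 to 6000 detected genes and under 30% mitochondrial UMIs were kept, by the limits that the study's methods state. Of 15162 wild-type barcodes 1 was removed, and of 13034 from the Usb1-null library 16. The study states a lower number of wild-type cells than these limits left, and as many Usb1-null cells as there were deposited barcodes.

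Clustering used Scanpy 1.11.5 and leidenalg 0.10.2: 2000 variable genes (pathway, mitochondrial, ribosomal protein and sex-linked marker genes left out), 30 components, a Harmony correction between libraries written in NumPy 2.4.6, 15 neighbours and resolution 1.2. A cluster was given a class from marker lists when at least 3 markers were raised and its leading genes did not point elsewhere. Scrublet marked 6.76% of wild-type and 4.29% of Usb1-null cells as doublets, which stayed in unless stated.

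Each level is the sum of UMIs per gene, library and cluster, divided by the total UMIs of those cells (CPM). Intervals (SciPy 1.17.1) are exact Poisson for levels, exact conditional binomial for ratios and Clopper-Pearson for shares, all at 95%. A gene was called past 1.5-fold with at least 100 UMIs over both libraries, and within a cluster also with at least 100 cells in each. The calculations were tested on simulated data. Reads were collapsed by UMI upstream, so the UMI totals per library (21751961 and 33775852) set the precision. Coordinates are from GENCODE M21. Alternatives covered cell filters, doublets, scaling, the UMI minimum, clustering and thinning depth. By rule, every member with a UMI was named by its highest cluster, with the 20 largest whole-library ratios, the 20 largest gene-cluster ratios and the 10 largest of the wider list. Other pairs past 1.5-fold, the compared cluster contrasts and Msx1, Tgfbi and Tbx20 were named after their values were seen. The 42 genes, the lists and the comparisons were chosen with earlier results of these data known.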

Additional observations from a re-analysis of the deposited data

Results flagged for a closer look

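Bmper had ratios in opposite directions in 2 neural clusters. Usb1-null over wild-type, it was 1.99 (1.34–3.04) in midbrain and midbrain-hindbrain boundary-like cells and 0.283 (0.193–0.411) in spinal cord progenitor-like cluster 16. The second value turned from a log2 ratio of -1.82 to 0.16 where pathway genes were allowed among the variable genes for clustering, so the opposite direction depended on the clustering. Smad6 was at 1.60 (1.19–2.17) in sclerotome-like cells and at 0.367 (0.218–0.592) in primitive erythroid-like cells. Each pair was noticed because 1 library per genotype moved one way in the first cluster and the opposite way in the second. With 1 library per genotype, neither difference between clusters was tested.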

How the results depend on the processing

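Of 74 recomputed values of the main comparisons 64 kept within their limits, as did 437 values for single genes, while 13 moved and 1 reversed. The roof plate-like over floor plate-like ratios of Id1 and Id2, recomputed under 6 clusterings as a check chosen after seeing the data, kept their direction. The number of pathway genes past 1.5-fold higher in the whole library went from 0 to 1 with doublets removed, with median-of-ratios scaling, with each cell scaled to 800 UMIs, and with no minimum of UMIs. That gene was Fst under the first 3 settings, at log2 ratios of 0.59, 0.60 and 0.61 against 0.58, and Inhbb, with 7 UMIs, under the last. For the wider list the 2 higher and 4 lower genes became 6 and 8 with no minimum of UMIs, leaving out Gdf5 and Lefty2, each with 0 UMIs in 1 library, and 0 and 1 with a minimum of 500. The number of the 37 genes with the same highest cluster as reported was 22 with doublets removed and 20 with cells of at least 1000 genes. The log2 ratio of Bmper in spinal cord progenitor-like cluster 16 was -1.82 as reported and 0.16 with pathway genes allowed among the variable genes; that of Fst in sclerotome-like cells was 1.11 as reported and 0.61 with clustering nearest to 19 clusters, where cells merge into fewer clusters. The cause was not tested for Bmper. No paired analysis was possible because there was 1 library per genotype, and for the same reason no replicate could be left out.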

Other observations

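Outside the 42 genes, other pathway genes differed within single clusters, given here as values of 1 library per genotype. Cdkn1a, a cell cycle inhibitor, had 6 UMIs (4.19 CPM) in wild-type and 61 UMIs (26.3 CPM) in Usb1-null endothelial-like cells, a ratio of 6.27 (2.72–17.8). Sostdc1, a secreted BMP and Wnt antagonist, was at 74.1 CPM in the wild-type library against 30.4 CPM in the Usb1-null library in surface ectoderm-like cluster 0, a ratio of 0.411 (0.309–0.544). Kcp, a BMP modulator of the kidney, was at 166 and 77.9 CPM in intermediate mesoderm-like cells on 27 and 25 UMIs, a ratio of 0.470 (0.262–0.842). In cardiomyocyte-like cells Bmp10, a ligand of the trabecular heart, was at 0.256 (0.104–0.579) on 22 and 9 UMIs, while Tbx20, a heart transcription factor, was at 1.40 (1.27–1.53), with 735 and 1026 CPM. Cdkn1a, Kcp and Bmp10 had fewer than the 100 UMIs asked of a called pair in these clusters, so their ratios are values with no call. These genes were singled out after their values were seen.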
